A study of Mus musculus with 6 samples.

Results

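The genes described are 10 markers of pericentral hepatocytes, the liver cells nearest the central vein, taken as a named list of genes that depend on Wnt signaling: *Glul*, *Oat*, *Cyp2e1*, *Cyp1a2*, *Axin2*, *Lgr5*, *Rhbg*, *Slc1a2*, *Tbx3* and *Lhpp*. All 10 were found among the 54115 genes of the files, and 9 of them passed the filter on low counts that left 12524 genes for testing. *Axin2* did not pass. The livers were taken from 24-month-old males, 3 WT and 3 *Sirt7* KO, after a fast of 16 h. WT and *Sirt7* KO mice were littermates from crosses of heterozygous mice of a line backcrossed onto C57BL/6J, and the KO of SIRT7, a protein deacylase, is not restricted to hepatocytes. Each library was made from the RNA of a whole-liver sample of 1 mouse and holds 9994860 to 13424776 reads assigned to transcripts. In such bulk RNA, fewer pericentral cells and less RNA per pericentral cell cannot be told apart, and the position of a cell along the lobule was not measured.

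Blood enters the liver lobule at the portal vein and leaves at the central vein, and hepatocytes divide their work along this path. Endothelial cells of the central vein release Wnt ligands and an R-spondin, which hold β-catenin active in the nearest hepatocytes and keep on their genes for glutamine synthesis and for cytochrome P450 enzymes. Periportal hepatocytes, at the other end, carry the urea cycle and gluconeogenesis. Ammonia that escapes the periportal urea cycle is caught by the ring of cells that make glutamine around the central vein.

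None of the 9 tested pericentral genes was called different between genotypes. A call needed an adjusted p under 0.05 by edgeR's quasi-likelihood test with Benjamini-Hochberg adjustment over all 12524 genes, and a fold change over 1.5; 0.00798% of all tested genes (1 gene) met it. DESeq2 and limma-voom also called none of the 9. At an unadjusted p under 0.05, *Cyp1a2* was the only one of the 9, on the higher side, where 6.54% of all tested genes were higher and 4.78% were lower. For none of the 9 genes did all livers of one genotype lie outside the range of the other, against 8.74% of all tested genes with every *Sirt7* KO liver higher and 8.09% with every one lower. The median log2 fold change of the 9 genes, *Sirt7* KO minus WT, was -0.03, beside -0.01 over all tested genes. The clearest pattern was among the *Sirt7* KO livers themselves: *Sirt7* KO mouse 1 had the lowest value of all 6 livers for 7 of the 9 genes.

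In *Sirt7* itself, the check of the labels, expression was 55.2, 45.5 and 47.3 CPM (counts scaled to the library size with TMM factors) in the WT livers and 28.6, 41.7 and 40.8 CPM in the *Sirt7* KO livers, so that every KO liver was below every WT liver. The transcript Sirt7-201 took 68.6% ± 6.52 of the reads of *Sirt7* in WT livers and 30.8% ± 11.2 in *Sirt7* KO livers (SD, n = 3 each). Reads of the gene remained in the KO livers, both on this transcript and on others. The 8 hepatocyte markers, which include albumin and transferrin, summed to 65140.8 to 72680.5 CPM in WT livers and to 68621.5 to 81015.1 CPM in *Sirt7* KO livers. None of them passed at an unadjusted p under 0.05. For 2 of the 8 every *Sirt7* KO liver was above every WT liver, against 8.74% of all tested genes, and for none was every one below.

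Promoter sequences of RefSeq for the build GRCm38.p6 matched 6 of the 10 genes (*Glul*, *Oat*, *Cyp2e1*, *Cyp1a2*, *Axin2* and *Slc1a2*). The 250 bases before each start were searched on both strands for CTTTGA, the core of the motif bound by the TCF/LEF partners of β-catenin, and for TATAAA, the TATA box. CTTTGA was found before *Cyp2e1*, *Cyp1a2* and *Slc1a2*, and in 13.8% of 32851 RefSeq promoters searched over the same length. TATAAA was found before *Cyp2e1*, 31 bases upstream of the start, and before *Cyp1a2*, 29 bases upstream, and in 12.4% of all these promoters. Neither set of letters lay in this window before *Glul*, *Oat* or *Axin2*. A match of letters in this window was not shown to be a site of binding. The stretches that hold CTTTGA are shown because they belong to the gene with the largest fold change (*Cyp1a2*), the most abundant one (*Cyp2e1*) and the one whose transcripts begin at separate starts (*Slc1a2*), with CTTTGA or its reverse complement TCAAAG in capitals. The stretches for *Cyp1a2* (chr9:57683704-57683905, minus strand) and *Cyp2e1* (chr7:140763569-140763738, plus strand) end where the first transcript of GENCODE M21 begins, somewhat upstream of the RefSeq start, so the TATA boxes lie beyond them. The stretch for *Slc1a2* is chr2:102706188-102706437 on the plus strand.
Cyp1a2: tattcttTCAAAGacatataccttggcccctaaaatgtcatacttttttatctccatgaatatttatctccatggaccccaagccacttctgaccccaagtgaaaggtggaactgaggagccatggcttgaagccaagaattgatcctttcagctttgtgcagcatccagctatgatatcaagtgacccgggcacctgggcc
Cyp2e1: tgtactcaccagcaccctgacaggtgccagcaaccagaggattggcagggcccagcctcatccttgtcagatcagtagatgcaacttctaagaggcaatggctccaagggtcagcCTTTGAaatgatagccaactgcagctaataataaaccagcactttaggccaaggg
Slc1a2: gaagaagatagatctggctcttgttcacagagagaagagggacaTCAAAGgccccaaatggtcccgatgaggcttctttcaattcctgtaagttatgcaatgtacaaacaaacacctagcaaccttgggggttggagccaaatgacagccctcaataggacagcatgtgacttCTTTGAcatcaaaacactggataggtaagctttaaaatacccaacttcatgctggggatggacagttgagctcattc

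Levels of different genes were compared as TPM, a share of the transcripts of a liver that accounts for transcript length. *Cyp2e1* was the most abundant of the 10, with a mean of 4688.1 TPM over the 6 livers (range 3762.0 to 5702.2). *Oat* (547.9 TPM), *Glul* (343.9 TPM) and *Cyp1a2* (314.8 TPM) followed, and neighbours among these 3 overlapped in their ranges. *Slc1a2* (89.6 TPM) and *Lhpp* (44.6 TPM) also overlapped. *Tbx3* (15 TPM), *Rhbg* (5.57 TPM), *Lgr5* (1.35 TPM) and *Axin2* (0.245 TPM) came last, each below the range of the gene before it. The enzymes and the glutamate transporter of the list were thus more abundant in every liver than its Wnt feedback genes and its transcription factor.

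**Figure D1:**
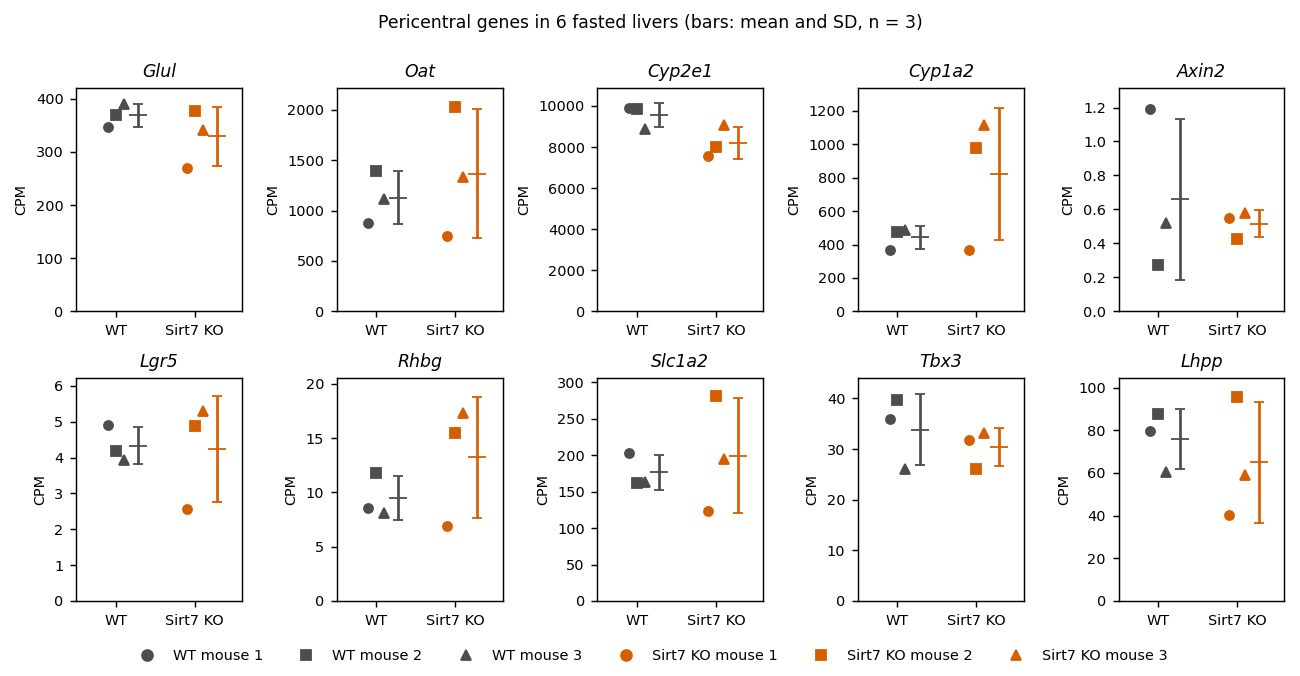
Expression of the 10 pericentral genes (y axes, CPM on a linear scale from 0, with a scale of its own for each gene) in WT and *Sirt7* KO livers (x axes). Each symbol is 1 mouse, the shape gives the mouse number within its genotype, and the bars give the mean and SD of 3 mice; *Sirt7* KO mouse 1 (orange circle) is the lowest of the 6 livers for *Glul*, *Oat*, *Cyp2e1*, *Lgr5*, *Rhbg*, *Slc1a2* and *Lhpp*.

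Nitrogen handling was covered by 4 of the genes. *Glul* (ENSMUSG00000026473.15, plus strand, chr1:153899944-153909723) encodes glutamine synthetase, which joins ammonia to glutamate in the cells around the central vein. It measured 347, 369.9 and 390 CPM in the WT livers and 268.9, 377.2 and 341.7 CPM in the *Sirt7* KO livers. *Sirt7* KO mice 1 and 3 were below all WT mice, mouse 3 by little, and KO mouse 2 was within the WT range. The log2 fold change was -0.16 (SE 0.16, 95% interval -0.54 to 0.21, adjusted p = 0.76, edgeR).

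*Oat* (ENSMUSG00000030934.9, minus strand, chr7:132557478-132576398) encodes ornithine aminotransferase, which turns ornithine into a precursor of glutamate. It measured 871.7, 1393 and 1115.2 CPM in the WT livers and 743.6, 2024.6 and 1329.8 CPM in the *Sirt7* KO livers. The lowest and the highest of the 6 livers were both *Sirt7* KO, a spread of 2.72-fold within that genotype. The log2 fold change was 0.28 (SE 0.33, 95% interval -0.48 to 1.03, adjusted p = 0.81, edgeR).

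*Slc1a2* (ENSMUSG00000005089.15, plus strand, chr2:102658659-102790784) encodes the glutamate transporter GLT-1, which takes up glutamate. It measured 203.6, 161.8 and 163.7 CPM in the WT livers and 123.3, 281.1 and 194.3 CPM in the *Sirt7* KO livers. The KO livers again lay on both sides of the WT range, with mouse 1 below it and mouse 2 above it. The log2 fold change was 0.18 (SE 0.27, 95% interval -0.43 to 0.79, adjusted p = 0.85, edgeR).

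*Rhbg* (ENSMUSG00000104445.1, minus strand, chr3:88242874-88254709) encodes an ammonium transporter of the Rh family. It measured 8.55, 11.8 and 8.14 CPM in the WT livers and 6.87, 15.5 and 17.3 CPM in the *Sirt7* KO livers. KO mice 2 and 3 were above all WT mice and KO mouse 1 was below them, and the log2 fold change was 0.48 (SE 0.34, 95% interval -0.28 to 1.24, adjusted p = 0.64, edgeR). Of the 31-base words in its transcript, 60.8% also occur in *Gm38392*, an overlapping gene of the same strand that held 14 to 51 reads per liver. The counts of *Rhbg* therefore rest on how Salmon divided reads between the pair.

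The cytochrome P450 enzymes went different ways in value. *Cyp1a2* (ENSMUSG00000032310.4, minus strand, chr9:57676937-57683703) encodes an enzyme that oxidizes caffeine and aromatic amines and is induced through the aryl hydrocarbon receptor. It measured 364.8, 477.3 and 489.2 CPM in the WT livers and 369.9, 980.6 and 1114.2 CPM in the *Sirt7* KO livers. KO mice 2 and 3 were above every WT mouse, and KO mouse 1 was at the low end of the WT range, a spread of 3.01-fold within the KO livers and of 1.34-fold within the WT livers. The log2 fold change was 0.89 (SE 0.35, 95% interval 0.09 to 1.69, adjusted p = 0.39 and 0.034 before adjustment, edgeR), or 1.85-fold. An exact permutation test of the 6 values gave p = 0.3 (two-sided; the smallest p that 6 livers allow is 0.1).

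*Cyp2e1* (ENSMUSG00000025479.9, plus strand, chr7:140763739-140774987) encodes an enzyme that oxidizes ethanol, acetone and acetaminophen. It measured 9887.2, 9869.5 and 8889.3 CPM in the WT livers and 7558.8, 7981.3 and 9084.9 CPM in the *Sirt7* KO livers. KO mice 1 and 2 were below all WT mice and KO mouse 3 was within the WT range. The log2 fold change was -0.22 (SE 0.18, 95% interval -0.62 to 0.19, adjusted p = 0.70, edgeR), and the highest KO liver was only 1.2-fold above the lowest, the narrowest spread of the 9 tested genes in this genotype.

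The genes that report or carry Wnt signaling were low. *Lgr5* (ENSMUSG00000020140.15, minus strand, chr10:115450311-115587780), a receptor for R-spondins, measured 4.91, 4.17 and 3.92 CPM in the WT livers and 2.56, 4.87 and 5.30 CPM in the *Sirt7* KO livers. KO mouse 1 was below and KO mouse 3 above every WT mouse. Its log2 fold change was -0.03 (SE 0.34, 95% interval -0.81 to 0.74, adjusted p = 0.98, edgeR). *Tbx3* (ENSMUSG00000018604.18, plus strand, chr5:119670669-119684724), a T-box transcription factor that represses periportal genes, measured 35.9, 39.6 and 26 CPM in the WT livers and 31.8, 26.1 and 33.2 CPM in the *Sirt7* KO livers. Its KO values lay inside the WT range, with a log2 fold change of -0.15 (SE 0.19, 95% interval -0.58 to 0.27, adjusted p = 0.81, edgeR). *Axin2* (ENSMUSG00000000142.15, plus strand, chr11:108920349-108950783), the scaffold of β-catenin destruction that is itself a Wnt target, had 14, 3 and 7 reads in the WT livers and 6, 4 and 6 reads in the *Sirt7* KO livers. At this depth a genotype difference of *Axin2* was not detectable.

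*Lhpp* (ENSMUSG00000030946.13, plus strand, chr7:132610638-132706420) encodes a phosphatase that removes phosphate from histidine. It measured 79.7, 87.5 and 60.5 CPM in the WT livers and 40.2, 95.8 and 58.9 CPM in the *Sirt7* KO livers. KO mouse 2 was above and KO mouse 1 below every other liver. The log2 fold change was -0.23 (SE 0.29, 95% interval -0.88 to 0.43, adjusted p = 0.82, edgeR).

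**Figure D2:**
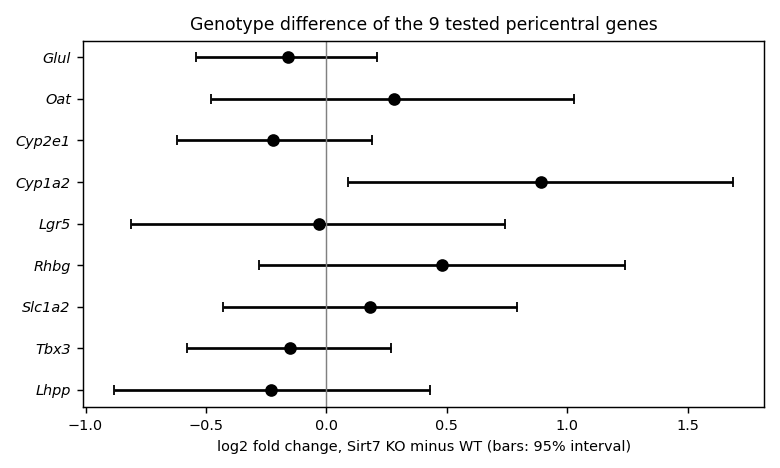
Log2 fold change, *Sirt7* KO minus WT (x axis), of the 9 tested pericentral genes (y axis), with the 95% interval of edgeR's fit to 3 livers per genotype as bars. The interval holds 0 for every gene but *Cyp1a2*, whose interval is 0.09 to 1.69.

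The intervals bound what the data allow. For *Glul* they reach from 0.690-fold to 1.15-fold of WT, for *Cyp2e1* from 0.649-fold to 1.14-fold, and for *Tbx3* from 0.669-fold to 1.21-fold, so a doubling of these genes lies outside their intervals. The intervals of *Oat* (0.718-fold to 2.05-fold) and *Rhbg* (0.822-fold to 2.36-fold) hold a doubling. For *Lgr5* the interval was 0.572-fold to 1.67-fold, for *Slc1a2* 0.742-fold to 1.73-fold and for *Lhpp* 0.542-fold to 1.35-fold.

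The KO livers were more unlike one another than the WT livers were for 8 of the 9 tested genes, with *Tbx3* as the exception. The same count was not made over all tested genes. Over all genes with enough reads, the chi-square per gene between mice of one genotype was 65, 74.5 and 26 for the WT pairs. It was 60.9, 48.4 and 17.6 for the *Sirt7* KO pairs, so by that measure the KO livers were not the more unlike ones. Within the *Sirt7* KO livers the highest liver exceeded the lowest by 3.01-fold for *Cyp1a2*, 2.72-fold for *Oat*, 2.52-fold for *Rhbg*, 2.38-fold for *Lhpp*, 2.28-fold for *Slc1a2* and 2.07-fold for *Lgr5*. Within the WT livers the same ratio was at most 1.6-fold for any of the 9 tested genes, and *Axin2*, with few reads, reached 4.36-fold. *Sirt7* KO mouse 1 was the lowest of all 6 livers for 7 of the 9 genes (77.8%), whereas it was the lowest for 18.2% of all tested genes. Among the 3 KO livers alone it was the lowest for 8 of the 9 genes (88.9%), against 37.9% of all tested genes. *Tbx3* was not among them. These shares describe this set of livers, since genes of one liver are not independent of each other.

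Markers of other cells also differed among the livers. The means below are of log2(CPM + 0.5) relative to the mean of the 6 livers, over the tested genes of a list. In *Sirt7* KO mouse 1 the mean was -0.49 for the pericentral genes and -0.05 for hepatocyte markers. It was 0.31 for the 8 endothelial markers, 0.56 for the 8 Kupffer cell markers, 0.43 for the 8 stellate cell markers and 0.69 for the 5 tested erythroid markers. For the tested cholangiocyte and lymphocyte markers it was 0.23 and 0.49. In *Sirt7* KO mouse 2, whose mean for the pericentral genes was 0.34, the means were -0.25 for endothelial, -0.61 for Kupffer cell, -0.13 for stellate cell and -0.53 for erythroid markers. In *Sirt7* KO mouse 3, whose mean for the pericentral genes was 0.23, the means were 0.25 for endothelial, 0.01 for Kupffer cell, -0.13 for stellate cell and 0.78 for erythroid markers. *Sirt7* KO mouse 1 was the highest of the 6 for 5 of the 8 endothelial, 4 of the 8 Kupffer cell, 6 of the 8 stellate cell and 3 of the 5 erythroid markers. Summed endothelial markers were 76.4 to 90.5 CPM in WT and 79.3 to 113.7 CPM in *Sirt7* KO livers, summed stellate cell markers 184.7 to 233.4 and 151 to 242.1 CPM, and the 5 tested erythroid markers 373.9 to 546.5 and 445.8 to 915.4 CPM. Summed Kupffer cell markers were 139.6 CPM in this liver, 50 and 96.5 CPM in the other KO livers and 54.3, 57.4 and 159.9 CPM in the WT livers. WT mouse 3, which had the highest Kupffer cell sum, had a mean of -0.13 for the pericentral genes. Summed over the tested markers, the 5 cholangiocyte genes were 58.2 to 80.7 CPM in WT and 65.2 to 84.6 CPM in *Sirt7* KO livers, and the 4 lymphocyte genes 7.53 to 8.13 and 3.92 to 10.3 CPM. No endothelial, Kupffer cell or stellate cell marker was at 0 in any liver. The part of these cells in the values of KO mouse 1 was not tested.

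Each liver was left out in turn. *Sirt7* KO mouse 1 was the lowest KO liver for 8 of the 9 genes, so leaving it out had to raise their KO means. Without *Sirt7* KO mouse 1, *Cyp1a2* had a log2 fold change of 1.24 (SE 0.17, 2.36-fold, adjusted p = 0.020, edgeR) and was called, where 1.95% of 12921 tested genes were called. At an unadjusted p under 0.05, 3 of the 9 genes were then higher (*Cyp1a2*, *Rhbg* and *Oat*) and none was lower, beside 8.97% of all genes higher and 8.12% lower. *Rhbg* had a log2 fold change of 0.79 (SE 0.23, adjusted p = 0.12) and *Oat* of 0.58 (SE 0.24, adjusted p = 0.28) in that fit. With any one of the other 5 livers left out, the adjusted p of *Cyp1a2* was 0.53 to 0.75 and its log2 fold change 0.61 to 0.97. Without *Sirt7* KO mouse 2 the only gene at an unadjusted p under 0.05 was *Lhpp*, at a log2 fold change of -0.62 (SE 0.24, adjusted p = 0.59 and 0.032 before adjustment, edgeR), and *Oat* and *Slc1a2* turned to -0.12 and -0.15.

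**Figure D3:**
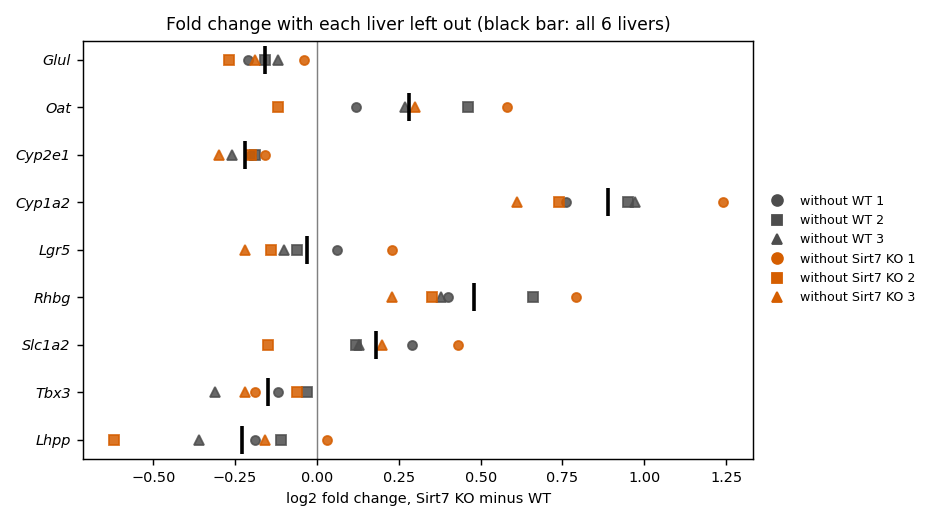
Log2 fold change, *Sirt7* KO minus WT (x axis), of each tested pericentral gene (y axis) when 1 of the 6 livers was left out; the shape and color name the liver left out and the black bar is the fit to all 6 livers. Leaving out *Sirt7* KO mouse 1 (orange circles) gave the highest value for 8 of the 9 genes, reaching 1.24 for *Cyp1a2*. That mouse was the lowest KO liver for the same 8 genes, so their KO means had to rise. *Oat* ranged from -0.12 to 0.58.

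The transcripts behind the gene counts were compared between genotypes as shares of the gene's reads. *Slc1a2* is annotated with more than 1 start. Slc1a2-201 and Slc1a2-203 begin at 102706438 on chromosome 2, just after the promoter stretch shown above, and Slc1a2-202 begins upstream at 102658659. Salmon assigned to Slc1a2-201 and Slc1a2-203 together 77.4%, 71.3% and 71.4% of the *Slc1a2* reads in the WT livers. In the *Sirt7* KO livers they held 68.3%, 81.9% and 81.4%. They thus held most of the reads in every liver, and the genotypes overlapped. The means were 73.4% ± 3.46 in WT and 77.2% ± 7.70 in *Sirt7* KO livers (SD, n = 3 each), with an exact permutation p of 0.4 (two-sided). Slc1a2-202 is also the longer transcript, at 11595 bases, and the use of either start was not measured. Of the *Cyp2e1* reads, the shorter transcript Cyp2e1-202 held 7.92%, 2.43% and 5.44% in the WT livers and 8.09%, 0.226% and 0.865% in the *Sirt7* KO livers. *Glul* reads were divided among 3 coding transcripts, with 36.9% ± 2.54 of the reads on Glul-201 in WT livers and 39.5% ± 4.18 in *Sirt7* KO livers (SD, n = 3). In *Glul*, 20.4% of the 31-base words are shared with other genes, mostly with the pseudogene *Glns-ps1*, which held at most 1 read per liver. Over 8 genes with several transcripts, the share of the main transcript gave adjusted exact permutation p-values of 0.57 to 0.60.

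A transcript of *Cyp1a2* that keeps an intron, Cyp1a2-202, was estimated at 0 reads in all 3 WT livers and at 5.36, 54.9 and 64.3 reads in the *Sirt7* KO livers. It made up 0.133%, 0.593% and 0.556% of the *Cyp1a2* reads of the KO livers. The exact permutation test of the share of the main transcript gave p = 0.1 (two-sided), the smallest that this design allows, and 0.57 after adjustment over the 8 genes. *Cyp1a1*, the neighbouring enzyme that shares 7.67% of the words of *Cyp1a2*, was at 0.366 to 1.63 CPM, so reads of *Cyp1a1* were few beside those of *Cyp1a2*.

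Among the pathway genes upstream of the markers, the Wnt ligands were near the limit of detection. *Wnt2*, a ligand of the central vein endothelium, measured 1.86, 1.36 and 1.85 CPM in the WT livers and 4.49, 1.48 and 3.37 CPM in the *Sirt7* KO livers (log2 fold change 0.88, SE 0.46, adjusted p = 0.53, edgeR). *Rspo3*, the R-spondin that stabilizes Wnt receptors, measured 2.46, 3.54 and 4.81 CPM in the WT livers and 6.04, 2.12 and 2.79 CPM in the *Sirt7* KO livers. *Wnt4* measured 3.13, 2.36 and 0.888 CPM in the WT livers and 1.65, 0.954 and 0.289 CPM in the *Sirt7* KO livers (log2 fold change -1.12, SE 0.68, adjusted p = 0.59, edgeR). *Sirt7* KO mouse 1 had the highest value of *Wnt2* and *Rspo3*, and WT mouse 1 had the highest value of *Wnt4*. *Wnt9b* had 2 to 7 reads per liver and was not tested.

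In the main edgeR fit, no Wnt receptor of 11 tested and no Wnt feedback gene or target of 12 tested passed at an unadjusted p under 0.05. Of 16 tested genes that act inside the cell, 1 did. At that p, 6.54% of all tested genes were higher and 4.78% lower. The gene that passed was *Bcl9l*, a coactivator of β-catenin, at 19.2, 19 and 14.6 CPM in the WT livers and 12.8, 8.48 and 13 CPM in the *Sirt7* KO livers (log2 fold change -0.62, SE 0.22, adjusted p = 0.34 and 0.021 before adjustment, edgeR). The median log2 fold changes of the 3 lists were -0.12, -0.17 and -0.27, in that order, beside -0.01 for all genes. The log2 fold change was negative for 8 of the 11 receptors, 10 of the 12 feedback genes and targets and 11 of the 16 genes inside the cell. Over all tested genes it was negative for 6345 of 12524. These counts were not tested. *Ctnnb1*, which encodes β-catenin, was at 73.9 ± 3.67 CPM in WT and 83.2 ± 12.3 CPM in *Sirt7* KO livers (SD, n = 3). *Tcf7l2*, its partner on DNA, was at 19.8 ± 3.12 and 16.1 ± 4.39 CPM. The feedback genes *Rnf43* (19.4 ± 2.24 and 16.2 ± 2.87 CPM), *Znrf3* (5.93 ± 1.48 and 5.52 ± 0.517 CPM) and *Nkd1* (4.28 ± 1.22 and 3.39 ± 1.92 CPM) overlapped between genotypes. *Kremen1* and *Notum* had the smallest p of the feedback genes and targets, and they overlapped as well. *Kremen1* had a log2 fold change of 0.54 (SE 0.24, adjusted p = 0.45, edgeR). *Notum*, at 40 ± 1.91 and 30.4 ± 8.14 CPM, had one of -0.40 (SE 0.19, adjusted p = 0.49, edgeR).

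*Glul*, *Oat*, *Slc1a2* and *Rhbg* belong to a wider list of genes of glutamine and ammonia metabolism. Leaving out these 4, 17 genes of the list were tested, with a median log2 fold change of 0.22, and none was called by edgeR. At an unadjusted p under 0.05, 2 were higher and 1 was lower, where 6.54% and 4.78% of all tested genes were. *Slc38a3*, a glutamine transporter, measured 545.2, 699.6 and 703 CPM in the WT livers and 701, 1120 and 1026.1 CPM in the *Sirt7* KO livers (log2 fold change 0.55, SE 0.21, adjusted p = 0.36, edgeR). *Got1*, the cytosolic aspartate aminotransferase, measured 149.1, 99.3 and 96.7 CPM in WT and 105.2, 367.5 and 201 CPM in *Sirt7* KO livers (log2 fold change 0.96, SE 0.39, adjusted p = 0.39, edgeR). *Slc38a2*, an amino acid transporter, had a log2 fold change of -0.47 (SE 0.20, adjusted p = 0.40, edgeR). *Sirt7* KO mouse 1 was the lowest KO liver for 16 of the 17 genes (94.1%), as it was for 8 of the 9 pericentral genes.

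**Figure D4:**
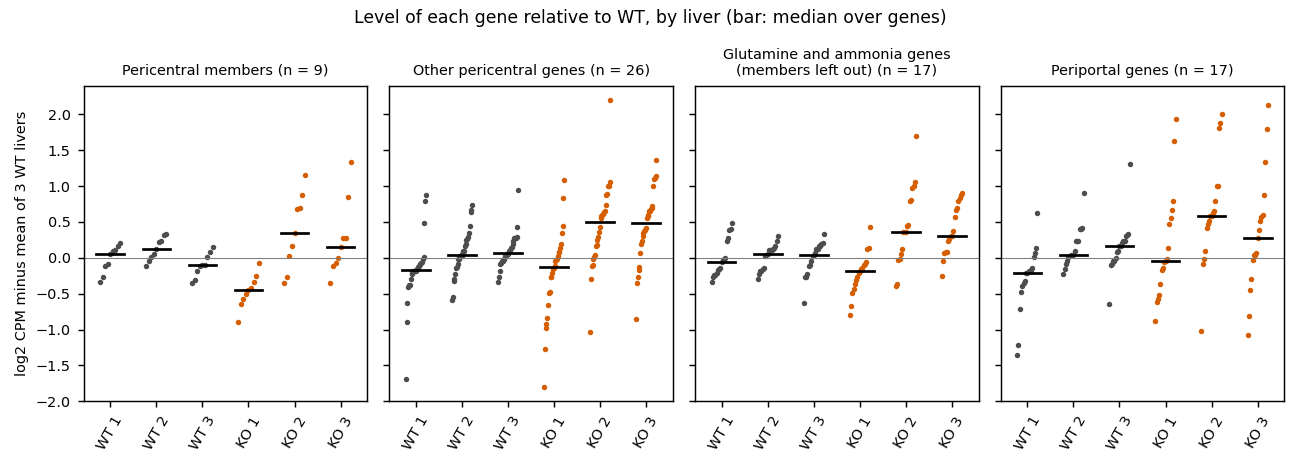
Level of each tested gene as log2(CPM + 0.5) minus its mean in the 3 WT livers (y axis) in each liver (x axis), for the 9 tested pericentral genes, 26 other pericentral genes, 17 genes of glutamine and ammonia metabolism and 17 periportal genes; points are genes, sorted within a liver, and bars are medians over genes. In the first panel the points of *Sirt7* KO mouse 1 lie below 0 for all 9 genes, while KO mice 2 and 3 have points on both sides of 0.

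In the aryl hydrocarbon receptor pathway, *Cyp1a2* and *Nqo1* lay on opposite sides. *Nqo1*, a quinone reductase induced by this receptor and by NRF2, measured 14.6, 17.3 and 13.7 CPM in the WT livers and 3.94, 7.95 and 5.11 CPM in the *Sirt7* KO livers. Every KO liver was below every WT liver, as for 8.09% of all tested genes. The log2 fold change of *Nqo1* was -1.43 (SE 0.28, adjusted p = 0.14 and 0.00058 before adjustment, edgeR), and it was called by DESeq2 (adjusted p = 0.0017). The receptor *Ahr* was at 23, 23.1 and 23.7 CPM in WT and 16.5, 21.4 and 34.7 CPM in *Sirt7* KO livers. Of 8 tested genes of the pathway, these were the only ones at an unadjusted p under 0.05: *Cyp1a2* higher and *Nqo1* lower. The shares of all tested genes at that p were 6.54% higher and 4.78% lower.

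*Cyp2e1* was set beside other genes of its regulation and of the fasting response, none of which was called by edgeR. Over the 10 genes of this list, *Cyp2e1* included, the median log2 fold change was -0.15, and 9 were negative. At an unadjusted p under 0.05, 2 were lower and 0 higher, where 4.78% and 6.54% of all tested genes were. Without *Sirt7* KO mouse 1 the median was -0.52, and 5 were lower at that p, where 8.12% of all tested genes were. *Ppara*, the receptor that directs the fasting response, measured 100.1, 162.8 and 150.4 CPM in the WT livers and 117.4, 83 and 77.4 CPM in the *Sirt7* KO livers. KO mice 2 and 3 were below every WT mouse and KO mouse 1 was within the WT range, with a log2 fold change of -0.57 (SE 0.23, adjusted p = 0.38, edgeR). *Hnf4a*, a nuclear receptor of hepatocytes, was at 285 ± 66.6 CPM in WT and 210.8 ± 33.7 CPM in *Sirt7* KO livers (SD, n = 3; log2 fold change -0.44, SE 0.20, adjusted p = 0.46, edgeR).

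Other pericentral genes, outside the 10, were compared as a group of 26. Their median log2 fold change was 0.30, and none was called by edgeR. At an unadjusted p under 0.05, 5 were higher and 2 were lower, where 6.54% and 4.78% of all tested genes were. *Slc13a3*, a transporter of dicarboxylates, measured 6.94, 9.53 and 7.40 CPM in the WT livers and 17.3, 16.3 and 17.4 CPM in the *Sirt7* KO livers (log2 fold change 1.10, SE 0.19, adjusted p = 0.11, edgeR). *Nr1i3*, the nuclear receptor CAR, measured 451.6, 630 and 712.8 CPM in the WT livers and 310.4, 288 and 326.5 CPM in the *Sirt7* KO livers (log2 fold change -0.96, SE 0.19, adjusted p = 0.14, edgeR). *Cldn2*, a tight junction protein, and *Rgn*, an enzyme of ascorbate synthesis, had log2 fold changes of 0.57 (SE 0.15, adjusted p = 0.21) and 0.64 (SE 0.18, adjusted p = 0.22). Over the whole list the genotypes did not overlap for 3 genes on the higher and 2 on the lower side, where the shares of all tested genes were 8.74% and 8.09%. With DESeq2 in place of edgeR, *Slc13a3* (adjusted p = 0.0042), *Nr1i3* (adjusted p = 0.00028) and *Rgn* (adjusted p = 0.030) were called. With offsets for transcript length added to DESeq2, *Rgn* was not called (adjusted p = 0.081). On simulated data 19% of the calls of DESeq2 were false.

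The opposite end of the lobule was compared as a group of 17 tested periportal genes. At an unadjusted p under 0.05, 4 were higher and 1 was lower, where 6.54% and 4.78% of all tested genes were. For 5 of the 17 every *Sirt7* KO liver was higher than every WT liver, and for 1 every one was lower. The same shares of all tested genes were 8.74% and 8.09%. None was called by edgeR, and the median log2 fold change was 0.34. The 4 with the smallest p were *Aldh1b1*, a mitochondrial aldehyde dehydrogenase (1.35, SE 0.31), *Hsd17b13*, a lipid droplet enzyme (-0.90, SE 0.23), *Sult5a1*, a sulfotransferase (1.66, SE 0.44), and *Cdh1*, E-cadherin (1.63, SE 0.58), with log2 fold changes in parentheses and adjusted p of 0.17 to 0.34 (edgeR). DESeq2 called all 4, at adjusted p = 0.00051, 0.0044, 0.0030 and 0.046 in the same order. With offsets for transcript length added, DESeq2 did not call *Cdh1* (adjusted p = 0.1) but called the others. Without *Sirt7* KO mouse 1, edgeR called *Aldh1b1* (adjusted p = 0.024). *Cdh1* measured 1.10, 3.72 and 9.69 CPM in the WT livers, and its log2 fold change was 2.66 without WT mouse 3 and 1.16 without WT mouse 1. In *Sirt7* KO mouse 1 the mean level relative to the 6 livers was -0.32 for the other pericentral genes and -0.03 for the periportal genes, on the log2(CPM + 0.5) scale. WT mouse 1 was at -0.29 and -0.49 for the same lists, and it was the lowest of the 6 livers for 11 of the 26 other pericentral genes, against 9 for *Sirt7* KO mouse 1, and for 10 of the 17 periportal genes. For the 10 pericentral genes the order was another, with means of -0.05 in WT mouse 1 and -0.49 in *Sirt7* KO mouse 1 over the 9 that were tested. Among the KO livers alone, KO mouse 1 was the lowest for 22 of the 26 other pericentral genes (84.6%). It was the lowest KO liver for 10 of the 17 periportal genes (58.8%), against 88.9% of the 9 pericentral genes and 37.9% of all tested genes.

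*Glul* was used as the reference for likeness across the 6 livers. The Pearson correlation of log2(CPM + 0.5) with *Glul* ranged from -0.23 for *Tbx3* to 0.78 for *Lhpp* over 8 relations, and Spearman's rho from -0.43 to 0.66. After Benjamini-Hochberg adjustment of the exact permutation p-values the lowest was 0.48 for Pearson and 0.92 for Spearman. The genes closest to *Glul* were *Lhpp* (r = 0.78, rho = 0.66), *Lgr5* (r = 0.70, rho = -0.09) and *Oat* (r = 0.69, rho = 0.54). Without the livers farthest from the median of *Glul*, *Sirt7* KO mouse 1 and WT mouse 3, r was 0.88 for *Lhpp*, -0.63 for *Lgr5* and 0.74 for *Oat*, so the value of *Lgr5* rested on those livers. The livers of both genotypes were pooled for these values.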

How the data were processed

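The authors trimmed single-end reads of SMART-seq HT and Nextera XT libraries with Trim Galore 0.6.5 and quantified them on GRCm38 transcripts with Salmon 1.2.1. The deposited files give, per mouse, estimated counts per transcript, which need not be whole, and TPM, scaled by the authors' Salmon run to effective length and to a fixed total. The annotation release is not given in the sources used here. Of 140992 transcripts, all but 1201 were assigned to genes of GENCODE M21. Counts were summed per gene and rounded. Testing used edgeR 4.0.16 (R 4.3.3; TMM, filterByExpr with a minimum count of 10, quasi-likelihood test) without pairing or length correction. CPM denotes counts scaled to the library size with TMM factors, and permutation tests and relative levels used log2(CPM + 0.5). DESeq2 1.42.0, limma 3.58.1, other scalings and filters, length offsets, a replicate block and leaving out each mouse were alternatives. The test was checked on simulated data for the genotype comparison (12524 genes). There edgeR found 78% of the 4-fold and 24% of the 2-fold changes, with 9.07% of its calls false. DESeq2 found 82.7% and 42.3% of these changes, with 19% of its calls false.

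The members and gene lists were chosen with earlier results of these data known. Beside the 10 genes, *Sirt7* and 8 Wnt genes, the genes given with values were drawn from the up to 4 genes of each list with the smallest p. Not all of those are named. *Ahr*, *Cyp1a1*, *Gm38392* and *Glns-ps1* were added after their values were seen. A gene that the rule names is not reported here. Mice of one genotype differed by more than sampling noise (chi-square of at least 17.6 per gene), so each counted as 1 replicate. No source names molecular identifiers, and read depth bears on counting error alone.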

Additional observations from a re-analysis of the deposited data

How the results depend on the processing

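Under all 16 alternatives the median log2 fold change of the pericentral genes stayed between -0.16 and 0.23. No pericentral gene was called in 14 of them, and 1 was called (*Cyp1a2*) with no filter on low counts (log2 fold change 0.90, adjusted p = 0.00076, edgeR) and without *Sirt7* KO replicate 1, so leaving out 1 mouse gave 0 to 1. The number of the 10 genes at an unadjusted p under 0.05 was 1 with all mice, 0 with limma-voom, and 0 to 3 with 1 mouse left out. Over all genes 1 was called, against 2 with length offsets in edgeR, 2 with limma-voom, 2 with total counts, 633 with no filter, 258 with DESeq2, 242 with DESeq2 and length offsets, and 0 to 252 with 1 mouse left out (252 without *Sirt7* KO replicate 1). Total counts moved the median of all genes to -0.11.

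Signs turned in single genes, none of them called under any alternative: *Oat* (-0.12) and *Slc1a2* (-0.15) without *Sirt7* KO replicate 2; *Lhpp* (0.03) and *Lgr5* (0.23) without *Sirt7* KO replicate 1; *Lgr5* also without WT replicate 1 (0.06) and with DESeq2 and length offsets (0.01); and *Tbx3* with length offsets in edgeR (0.12) and DESeq2 (0.13). *Rspo3* turned with limma-voom (-0.06), total counts (-0.06), the block (-0.07), without *Sirt7* KO replicate 1 (-0.55) and without WT replicate 1 (-0.19), *Lrp6* with length offsets in edgeR (0.01) and DESeq2 (0.01), and *Znrf3* without WT replicate 3 (0.12). With 1 mouse left out the ranges were -0.12 to 0.58 for *Oat*, -0.22 to 0.23 for *Lgr5*, -0.15 to 0.43 for *Slc1a2*, -0.62 to 0.03 for *Lhpp*, -0.55 to 0.29 for *Rspo3* and -0.24 to 0.12 for *Znrf3*. The causes were not tested.

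Neither the labels nor the paper's methods pair the mice by replicate number. The correlation of deviations from the genotype means was 0.0652, 0.08 and -0.0437 for same-numbered mice. For mice of different number it was -0.103 to 0.0487. These values do not settle whether the numbers pair the mice. With the replicate block 41 genes were called and none of them was pericentral (*Cyp1a2* log2 fold change 0.75, adjusted p = 0.31, edgeR), while the periportal *Aldh1b1* was called (adjusted p = 0.045).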
